A study of Mus musculus with 12 samples.

Results

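The collagen genes of sorted mouse skin cells were taken as all genes whose symbol reads Col, a number, a and a number, among Affymetrix probe sets with a single gene symbol. There were 42 such genes of 18193 genes on the arrays, measured by 82 probe sets. They comprised 11 fibrillar collagens, 6 chains of the basement membrane collagen type IV, the 2 epithelial anchoring collagens Col7a1 and Col17a1, 2 multiplexins, 9 FACIT collagens (which attach to fibrils), 5 beaded filament chains of type VI, 3 network chains of types VIII and X, 3 other transmembrane collagens and Col26a1. The list also named Col6a6 and Col28a1, which were not analysed here. Cells had been sorted from back skin of female mice aged P72 to P74, on a mixed C57BL/6 and CD1 background, by Rosa26-YFP, P-cadherin and CD34. All mice carried either the cKO (conditional knockout) or the Het (heterozygous) genotype at Tgfbr2, which encodes the type II receptor for TGF-beta, so no wild type was included. The alleles and the driver of the recombination were not given in the sources used here. In set 2 and in set 1, each genotype gave cells of the hair germ (HG), cells of the bulge, and total keratinocytes. Cells of set 2 were labelled aberrantly quiescent for cKO HG and bulge and activated for Het HG and bulge, and those of set 1 quiescent for both genotypes. The 12 arrays fell into 10 groups, 8 of them with 1 array and 2 (total keratinocytes of either genotype) with 2 arrays. The labels do not state whether the fractions of a set share mice or are pools, and p-values cover only array-to-array spread, which may be technical.

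Collagens are triple-helical proteins of the extracellular matrix. Fibrillar collagens are made largely by fibroblasts and form the fibres of the dermis, while type IV collagen forms the sheet of the basement membrane on which basal keratinocytes sit. Keratinocytes themselves make collagen XVII, a transmembrane component of hemidesmosomes that anchors them to that sheet, and collagen VII, the anchoring fibril protein that ties the sheet to the dermis. In hair follicle stem cells of mice, collagen XVII is known for its role in keeping the bulge population.

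Values are log2 MAS5 signals, a probe set brightness that compares 1 gene between arrays but not different genes with each other. Signals under 20.7 were set to that floor (4.37 on the log2 scale), and genes were tested if the signal exceeded 84.7 on at least 2 arrays. The median signal of an array lay between 63.9 (Het HG set 2) and 109 (cKO bulge set 1). On the other HG arrays it was 95.7 to 98.8, and on the set 2 total keratinocyte arrays 65.5 (Het) and 66.3 (cKO). Tgfbr2 read 11.31 to 12.14 on cKO arrays and 10.35 to 12.39 on Het arrays, which overlap. The sources used here do not place its probes relative to the deleted part, so it does not check the labels. Cd34, the bulge sort marker, read 7.65 to 8.69 in HG, 14.42 to 14.79 in bulge and 10.03 to 11.30 in total keratinocytes. Cdh3, the gene of the sort marker P-cadherin, read 9.22 to 10.61 in HG, 8.02 to 9.10 in bulge and 9.33 to 10.07 in total keratinocytes, so HG and total keratinocytes overlap. The Het HG set 2 array stood apart, with the lowest basal keratinocyte marker sum of all 12 arrays (79490 signal units, against 153500 to 221500 on the other 11). It was also the lowest of the 4 HG arrays for 43.3% of all genes tested and the highest for 30.9%.

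Of the 42 collagen genes, 28 passed the filter in each comparison and 14 did not. The 14 were Col2a1, Col5a3, Col11a1, Col11a2 and Col24a1 of the fibrillar class, Col9a1, Col9a2, Col9a3 and Col19a1 of the FACIT class, Col6a4 and Col6a5 of type VI, Col10a1, Col13a1 and Col26a1. Several of these are known from cartilage, where types II, IX, X and XI are made. Their highest single value was 6.53, for Col26a1 in cKO bulge set 2, and Col24a1 lay at the floor on 11 of 12 arrays. Among the 28, 24 were above the filter level on at least 2 arrays of every fraction, and the other 4 were Col15a1, Col22a1, Col25a1 and Col4a3.

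**Figure D1:**
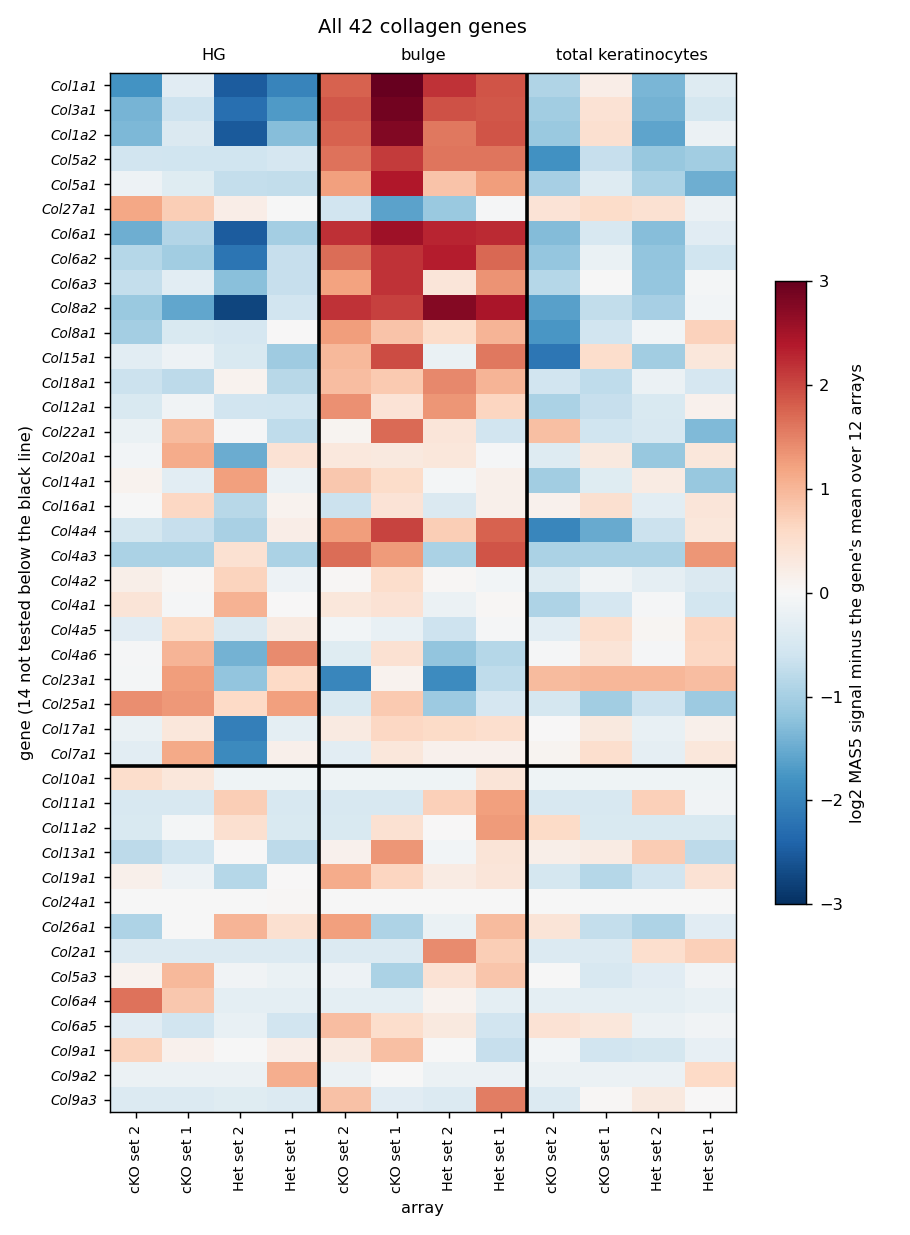
Each row is 1 of the 42 collagen genes and each column 1 of the 12 arrays, and colour gives the log2 signal minus the mean of that gene over all arrays (scale capped at 3 either way). The fibrillar, type VI and type VIII rows at the top are red in the bulge columns and mostly blue or pale elsewhere, except for Col27a1, and the 14 genes below the black line were not tested.

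Promoter sequence was read from RefSeq (GRCm38.p6) as the 150 bases before each annotated gene start, and 33 of the 42 genes had such windows, 36 in all. The windows printed are those of 4 collagens that fell in HG against bulge, of 1 that rose, and of the 2 epithelial anchoring collagens, so that the groups compared throughout can be read side by side. Capitals mark matches to 3 motifs on either strand, namely the CCAAT box, the TATA-like motif TATAAA and the GC box GGGCGG, with matches on the opposite strand printed as the reverse complement. The last 2 matches in Col8a2 overlap. Col1a2 lies at chr6:4505468-4505617, plus strand, Col3a1 at chr1:45311388-45311537, plus strand, Col6a1 at chr10:76726045-76726194, minus strand, Col8a2 at chr4:126286644-126286793, plus strand, Col23a1 at chr11:51289770-51289919, plus strand, Col17a1 at chr19:47692043-47692192, minus strand, and Col7a1 at chr9:108953436-108953585, plus strand.
Col1a2: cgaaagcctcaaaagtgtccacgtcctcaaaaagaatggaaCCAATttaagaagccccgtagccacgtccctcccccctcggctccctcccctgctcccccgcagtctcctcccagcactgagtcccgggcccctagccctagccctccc
Col3a1: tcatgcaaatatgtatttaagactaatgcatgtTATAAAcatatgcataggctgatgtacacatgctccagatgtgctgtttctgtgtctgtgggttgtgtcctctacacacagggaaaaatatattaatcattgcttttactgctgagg
Col6a1: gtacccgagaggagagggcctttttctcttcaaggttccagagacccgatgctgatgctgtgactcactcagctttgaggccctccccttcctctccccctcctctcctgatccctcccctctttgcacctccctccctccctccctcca
Col8a2: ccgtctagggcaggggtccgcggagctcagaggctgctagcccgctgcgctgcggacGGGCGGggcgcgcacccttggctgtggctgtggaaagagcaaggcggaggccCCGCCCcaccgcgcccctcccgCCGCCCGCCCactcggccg
Col23a1: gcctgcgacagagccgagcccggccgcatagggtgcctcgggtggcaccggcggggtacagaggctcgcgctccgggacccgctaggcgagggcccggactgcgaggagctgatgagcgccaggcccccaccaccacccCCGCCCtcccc
Col17a1: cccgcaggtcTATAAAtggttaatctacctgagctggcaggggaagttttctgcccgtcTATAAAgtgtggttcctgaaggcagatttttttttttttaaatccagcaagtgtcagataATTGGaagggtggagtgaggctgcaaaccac
Col7a1: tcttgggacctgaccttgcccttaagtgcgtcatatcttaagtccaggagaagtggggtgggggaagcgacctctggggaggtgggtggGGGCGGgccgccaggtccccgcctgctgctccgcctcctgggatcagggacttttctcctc
The windows differed in base composition, with 37.3% G and C for Col3a1 and 78.0% for Col8a2. GGGCGG stood in 18 of the 36 collagen windows, against 28.6% of all 32851 promoter windows of the same length. CCAAT stood in 8 of 36, against 24.5% of all windows, and TATAAA in 4 of 36, against 7.57%. Col17a1 held 2 copies of TATAAA and 1 CCAAT on the other strand, Col8a2 held 4 GGGCGG matches, and Col6a1 held none of the 3 motifs. A match describes the letters only.

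HG cells gave much lower fibrillar, type VI and type VIII collagen signals than bulge cells. Of the 28 collagen genes tested, 14 fell in HG and 2 rose, against 10.7% and 8.44% of all 12589 genes tested in those directions (limma with Benjamini-Hochberg adjustment, threshold 0.05, HG and bulge arrays of the same genotype and set forming a block). Their median log2 difference, HG minus bulge, was -1.39, beside -0.02 over all genes tested. Of the 24 above the filter level in every fraction, 13 fell and 2 rose. For 13 of the 28 every HG array lay below every bulge array, which 12.1% of all genes tested did, and for 1 every HG array lay above. In bulk RNA of a sorted fraction, fewer cells of a type and less RNA per cell cannot be told apart.

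Fibrillar collagens moved together apart from 1 gene, as 5 of the 6 tested fell in HG and Col27a1 rose. Col1a1 and Col1a2 encode the chains of type I collagen, the main collagen of dermis. Each pair of values below gives set 2 and set 1. Col1a1 read 8.30 and 9.77 in cKO HG and 7.59 and 8.12 in Het HG, against 11.87 and 13.35 in cKO bulge and 12.27 and 11.98 in Het bulge. In total keratinocytes Col1a1 read 9.21 and 10.30 in cKO and 8.74 and 9.71 in Het. The groups do not overlap: the highest HG array lies under the lowest bulge array for Col1a1, and its log2 difference was -3.92 (SE 0.21, 95% interval -4.40 to -3.45, limma adjusted p = 7.92e-06), a 15.2-fold lower signal in HG. Col1a2 read 12.18 and 13.09 in cKO HG and 11.01 and 12.27 in Het HG, against 15.30 and 16.31 in cKO bulge and 15.11 and 15.43 in Het bulge. The same split showed for Col1a2 as for Col1a1, with a difference of -3.40 (SE 0.21, adjusted p = 1.51e-05).

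Col3a1 encodes type III collagen, which forms fibrils with type I. It read 11.89 and 12.65 in cKO HG and 11.01 and 11.57 in Het HG, against 15.13 and 16.16 in cKO bulge and 15.18 and 15.15 in Het bulge. Its difference was -3.62 (SE 0.19, adjusted p = 7.38e-06), and in each of the 3 fractions the cKO set 1 array was the highest for Col3a1. Col5a1 and Col5a2 encode type V chains, which join type I fibrils and regulate their width. Col5a2 was nearly constant in HG, at 9.88 and 9.86 in cKO and 9.88 and 9.96 in Het, against 12.09 and 12.57 in cKO bulge and 12.08 and 12.08 in Het bulge (difference -2.31, SE 0.16, adjusted p = 3.2e-05). Col5a1 had a difference of -1.92 (SE 0.25, adjusted p = 9.18e-04), with 7.93 to 8.51 on the HG arrays and 9.52 to 11.06 on the bulge arrays. Col3a1 and Col5a2 neighbour each other on chromosome 1.

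Col27a1, a fibrillar collagen known from cartilage, went the other way. It read 8.85 and 8.41 in cKO HG and 7.88 and 7.66 in Het HG, against 7.11 and 6.07 in cKO bulge and 6.56 and 7.64 in Het bulge. The lowest HG value of Col27a1 and its highest bulge value nearly touch (7.66 and 7.64), and the difference was 1.35 (SE 0.38, 95% interval 0.49 to 2.22, adjusted p = 0.0381). Its call was lost without either cKO condition (adjusted p = 0.146 without cKO set 2 and 0.156 without cKO set 1) and under 3 other settings.

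The 3 tested chains of type VI collagen, which builds beaded filaments around cells, all fell in HG, with differences between -3.78 and -2.01. Col6a1 read 8.72 and 9.29 in cKO HG and 7.69 and 9.16 in Het HG, against 12.37 and 12.72 in cKO bulge and 12.48 and 12.41 in Het bulge. The HG arrays of Col6a1 spread more (8.71 ± 0.73, SD, n = 4) than the bulge arrays (12.49 ± 0.16, SD, n = 4), and the difference was -3.78 (SE 0.25, adjusted p = 2.15e-05). Col6a2, its neighbour on chromosome 10, differed by -3.17 (SE 0.32, adjusted p = 2.26e-04) and Col6a3 by -2.01 (SE 0.20, adjusted p = 2.33e-04). Type VIII collagen forms hexagonal networks, and both its chains fell in HG. Col8a2 read 8.92 and 8.49 in cKO HG and 7.29 and 9.46 in Het HG, against 12.20 and 12.10 in cKO bulge and 12.79 and 12.49 in Het bulge, which leaves a wide gap (difference -3.85, SE 0.35, adjusted p = 1.4e-04). Col8a1 fell less, with a difference of -1.41 (SE 0.29, adjusted p = 0.00937).

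Multiplexins are basement membrane collagens that carry sugar chains, and both members fell in HG. Col18a1, whose C-terminal fragment is endostatin, read 9.59 and 9.46 in cKO HG and 10.35 and 9.42 in Het HG, against 11.18 and 11.02 in cKO bulge and 11.68 and 11.26 in Het bulge. Set 2 of Het was its highest array in HG, in bulge and in total keratinocytes, and the HG to bulge difference was -1.58 (SE 0.16, adjusted p = 2.29e-04). Col15a1 was above the filter level on at least 2 bulge arrays but on fewer than 2 HG arrays, so the filter favoured a fall. Its arrays overlap, with cKO HG set 1 at 6.40 and Het bulge set 2 at 6.36. Col15a1 gave the same difference of -1.58 with a larger error (SE 0.44, limma adjusted p = 0.0351). Its call was lost without the arrays of cKO set 2, cKO set 1 or Het set 1 (adjusted p = 0.0901, 0.148 and 0.155). Of the 5 FACIT collagens tested, Col12a1 fell (-1.38, SE 0.24, adjusted p = 0.00458), a call that was lost with the mean of all its probe sets (-0.60, adjusted p = 0.176) and with no filter (adjusted p = 0.0865). Col14a1, Col16a1, Col20a1 and Col22a1 did not pass the test, with differences between -0.40 and 0.10.

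**Figure D2:**
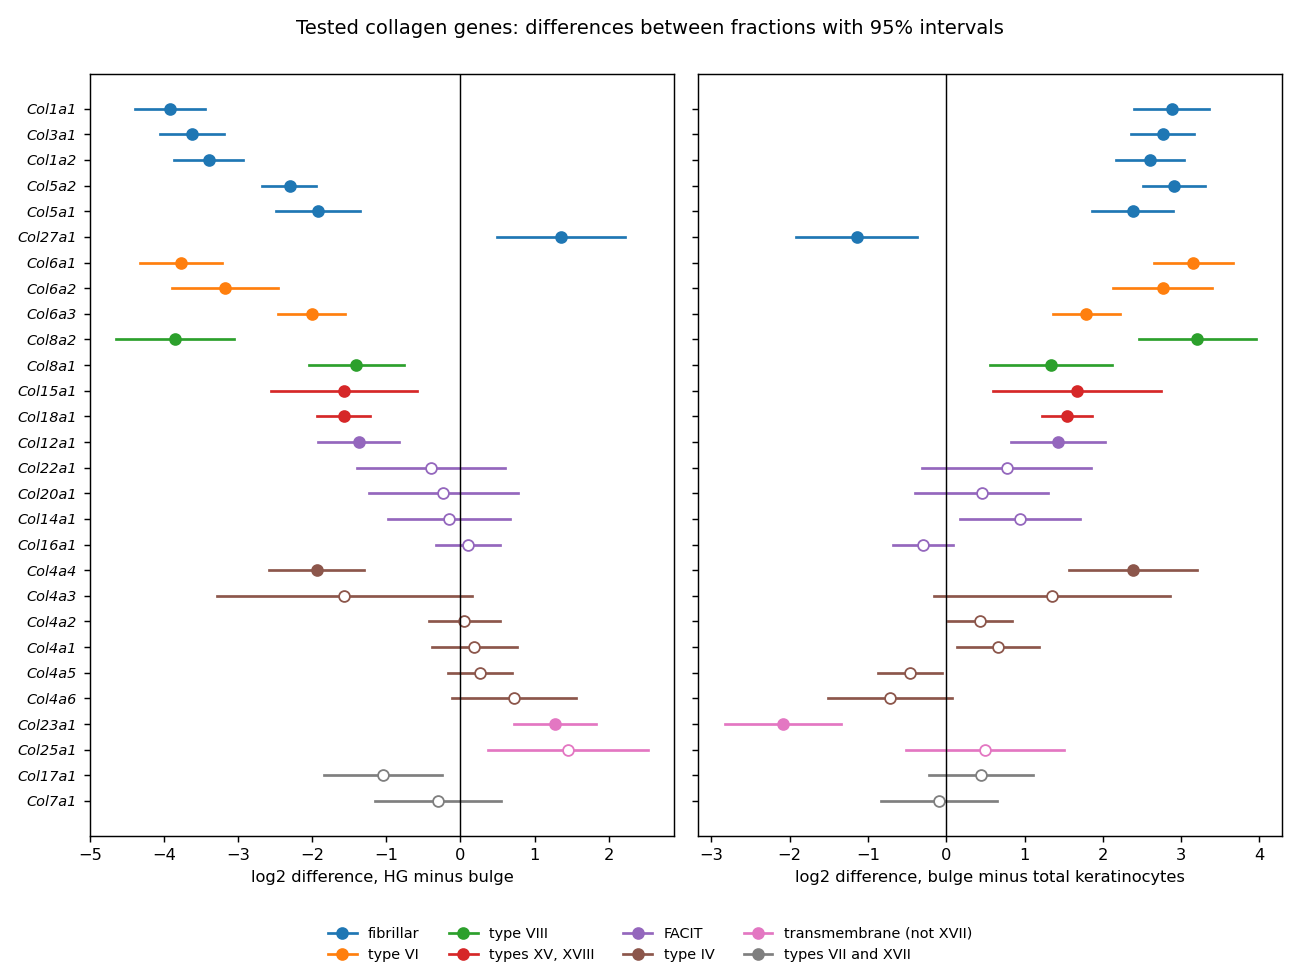
Points are log2 differences of the 28 tested collagen genes with 95% intervals as bars, for HG minus bulge on the left and bulge minus total keratinocytes on the right. Filled points passed an adjusted p of 0.05 and open points did not. Types I, III, V, VI and VIII lie far left of 0 in HG minus bulge (Col1a1 at -3.92), and Col17a1 and Col7a1 at the bottom are open in both panels.

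For the epithelial anchoring collagens the HG and bulge arrays overlapped. Col17a1 read 14.46 and 15.003 in cKO HG and 12.61 and 14.37 in Het HG, against 14.92 and 15.29 in cKO bulge and 15.24 and 15.17 in Het bulge. In total keratinocytes Col17a1 read 14.66 and 14.95 in cKO and 14.43 and 14.81 in Het. It was lower in HG than in bulge in 4 of 4 conditions, but cKO HG set 1 lies above cKO bulge set 2, and the difference of -1.04 (SE 0.35, 95% interval -1.84 to -0.24) missed the threshold (limma adjusted p = 0.0708). The Het set 2 pair supplied much of that value: without it the difference was -0.51 (adjusted p = 0.0678), and in the 12-array fit the same -1.04 passed (adjusted p = 0.0273).

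Col7a1 read 9.87 and 11.33 in cKO HG and 8.29 and 10.35 in Het HG, against 9.89 and 10.53 in cKO bulge and 10.32 and 10.33 in Het bulge. Both the lowest and the highest of these 8 arrays were HG arrays for Col7a1, so the fractions overlap fully. Its difference was -0.31 (SE 0.38, 95% interval -1.16 to 0.55, adjusted p = 0.62), and it changed sign without the Het set 2 pair (0.27, adjusted p = 0.326). The interval leaves room for a change of more than 2-fold downward. Whether the anchoring collagens differ from the fibrillar ones in their HG to bulge difference was not tested. The interval of Col17a1 overlaps that of Col5a1 (-2.49 to -1.36), but not those of Col1a1, Col1a2, Col3a1, Col5a2 (-2.67 to -1.95) or Col27a1. For Col7a1 the interval overlaps that of Col27a1 (0.49 to 2.22), while those of the fibrillar genes that fell lie below it.

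**Figure D3:**
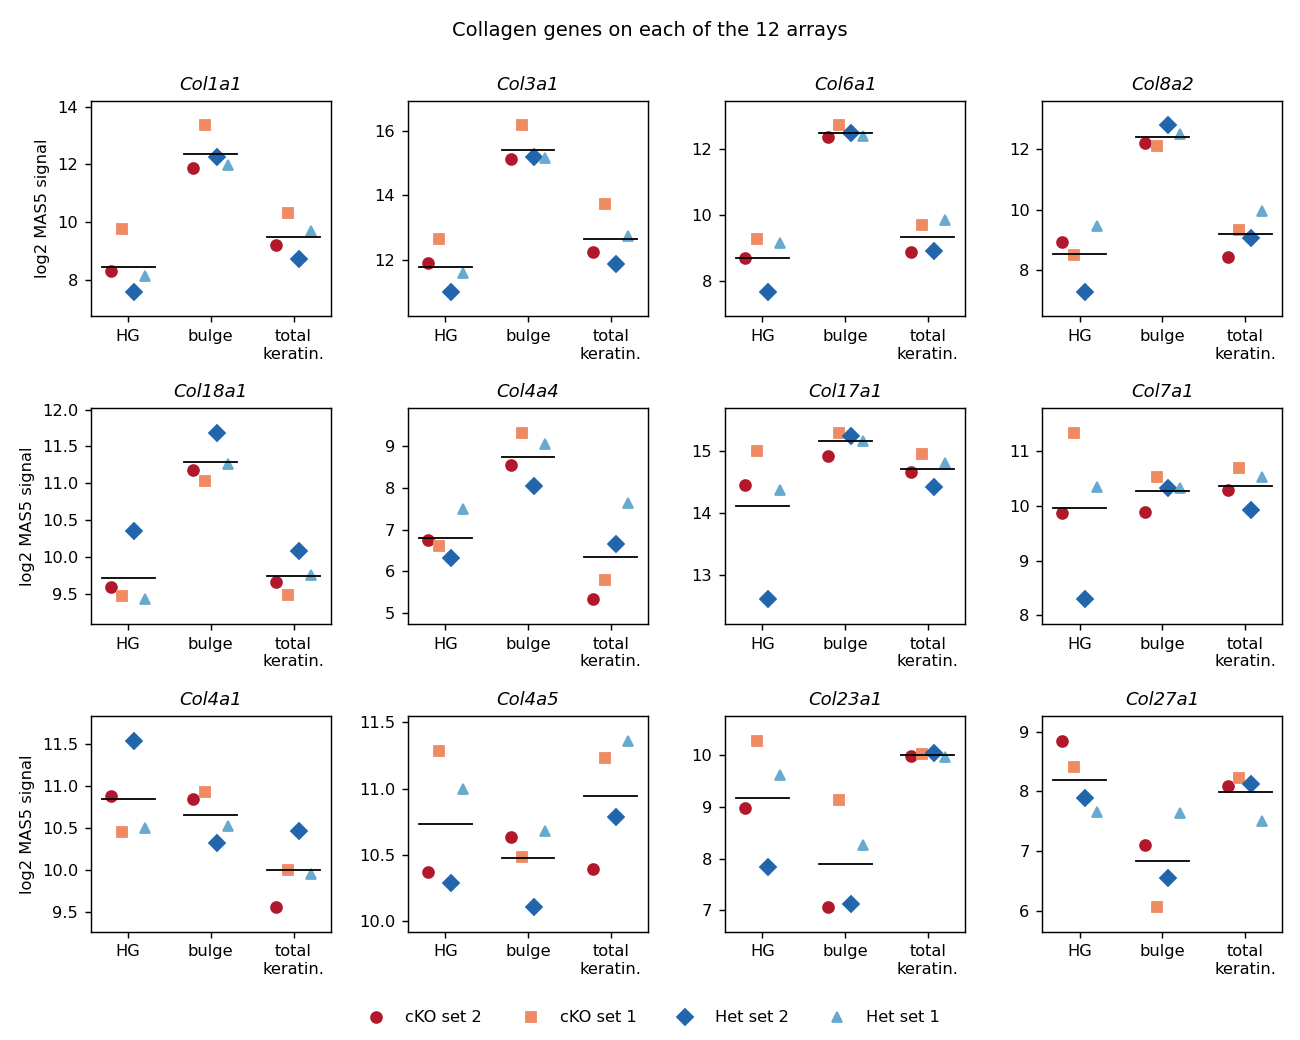
Each panel shows 1 collagen gene as log2 MAS5 signal on the 12 arrays, by fraction on the horizontal axis and by genotype and set in colour and symbol, and black lines are means of 4 arrays. In Col1a1, Col3a1, Col6a1 and Col8a2 all bulge points lie above all HG points, while in Col17a1 and Col7a1 the fractions overlap and the Het HG set 2 point is the lowest of all 12 (12.61 and 8.29).

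Type IV chains were split between those patterns. Type IV collagen is built from Col4a1 and Col4a2 in nearly all basement membranes, with Col4a3 to Col4a6 added in particular tissues, and skin is known for a sheet with the chains of Col4a5 and Col4a6. Only Col4a4 fell in HG among the 6 chains, at 6.76 and 6.61 in cKO HG and 6.32 and 7.48 in Het HG, against 8.54 and 9.31 in cKO bulge and 8.04 and 9.06 in Het bulge (difference -1.94, SE 0.28, adjusted p = 0.00171). Its chromosome 1 neighbour Col4a3 lay at the floor on 7 of 12 arrays and gave -1.57 (SE 0.76, adjusted p = 0.187).

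Col4a1 read 10.88 and 10.46 in cKO HG and 11.54 and 10.50 in Het HG, against 10.85 and 10.93 in cKO bulge and 10.32 and 10.53 in Het bulge. Its fractions overlap, with a difference of 0.19 (SE 0.25, adjusted p = 0.649), and its other probe set above the filter gave -0.48, so its direction depends on the probe set. Col4a2 read 9.57 and 9.43 in cKO HG and 10.06 and 9.26 in Het HG, against 9.43 and 9.92 in cKO bulge and 9.43 and 9.32 in Het bulge (difference 0.05, SE 0.21, adjusted p = 0.892). The starts of Col4a1 and Col4a2 lie on opposite strands of chromosome 8, 21 bases apart in the RefSeq annotation of GRCm38.p6, and both were highest on the Het HG set 2 array.

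Col4a5 and Col4a6 form the same kind of head-to-head pair on chromosome X, with starts 1343 bases apart. Col4a5 read 10.37 and 11.29 in cKO HG and 10.29 and 10.997 in Het HG, against 10.64 and 10.49 in cKO bulge and 10.11 and 10.68 in Het bulge (difference 0.26, SE 0.19, adjusted p = 0.385). Col4a6 read 8.62 and 9.67 in cKO HG and 7.23 and 10.08 in Het HG, against 8.30 and 9.12 in cKO bulge and 7.48 and 7.80 in Het bulge (difference 0.72, SE 0.37, adjusted p = 0.208). Both genes were lower in set 2 than in set 1 in HG of either genotype.

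Among the transmembrane collagens other than type XVII, Col23a1 rose and Col25a1 did not pass the test. Col23a1 read 8.97 and 10.27 in cKO HG and 7.83 and 9.62 in Het HG, against 7.07 and 9.13 in cKO bulge and 7.12 and 8.27 in Het bulge. It was higher in HG within each of the 4 conditions, although the fractions overlap across conditions, and it rose by 1.27 (SE 0.25, adjusted p = 0.00748). That call needs the pairing of arrays by condition, since without a block its adjusted p was 0.148. Col25a1 read 6.85 and 6.76 in cKO HG and 6.07 and 6.70 in Het HG, against 5.02 and 6.24 in cKO bulge and 4.37 (the floor) and 4.95 in Het bulge, a difference of 1.45 that missed the threshold (SE 0.48, adjusted p = 0.0645).

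Fibroblast markers moved with the fibrillar collagens. Of 12 markers, 11 fell in HG against bulge, with a median difference of -2.55 and the largest for Lum (lumican, a collagen-binding proteoglycan, -4.60, adjusted p = 8.33e-07), and Thy1 did not pass (-0.44, adjusted p = 0.242). Mfap5, Twist1, Twist2 and Cd248 were above the filter level on fewer than 2 HG arrays and passed the filter through bulge, which favoured a fall. Of the 8 markers above it in both HG and bulge 7 fell. The summed signal of the 12 was 18120 to 30520 in HG, 66630 to 158200 in bulge and 14000 to 27520 in total keratinocytes. No fibroblast marker was at the floor on every array, Twist2 was there on 2 arrays and Twist1 on 1. None of the 6 basal keratinocyte markers passed the test between HG and bulge (limma, 1 at an unadjusted p below 0.05, median -0.10). All 7 melanocyte markers rose in HG against bulge (5 of these were above the filter level in both fractions), with a median of 2.79 and summed signals of 11100 to 19520 in HG and 1179 to 2380 in bulge. Of other markers, 2 of 4 for dermal papilla (Hhip and Lepr) fell and Rspo3 rose, Pmp22 of 3 Schwann markers fell and Sox10 rose, Lyz2 of 5 immune markers fell, and none of 5 endothelial or 2 muscle markers passed (limma, 2 and 0 at an unadjusted p below 0.05). Hhip was above the filter level in bulge and not in HG, so it had to differ. Sox10 was above it on fewer than 2 bulge arrays and passed the filter through HG. These counts rest on few genes each, beside 10.7% falling and 8.44% rising over all genes tested. What part these markers' cells have in the collagen values was not tested.

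**Figure D4:**
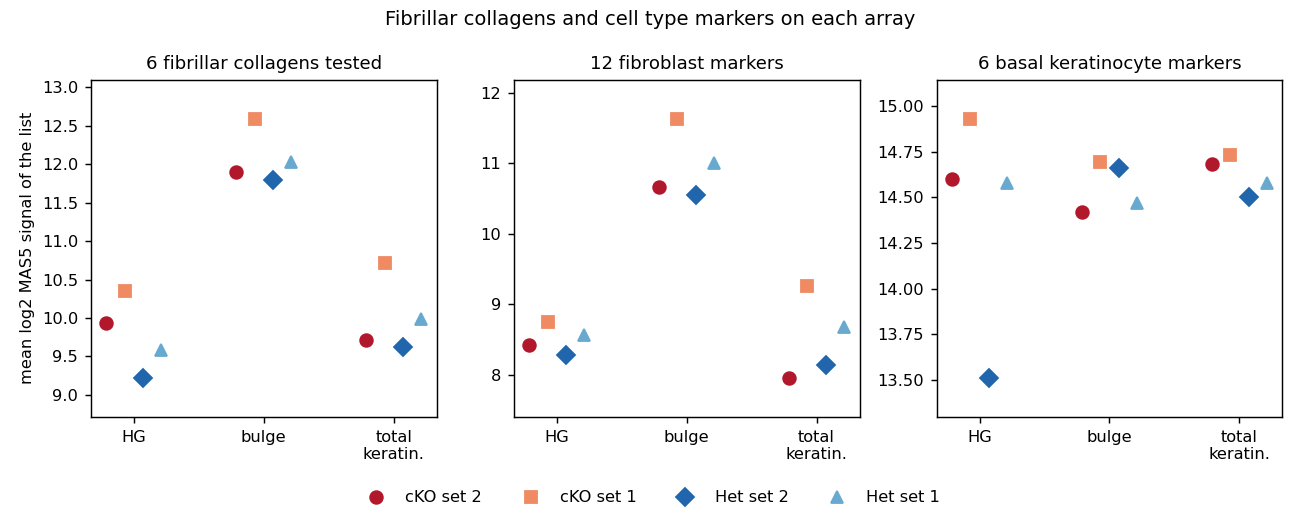
Points are means of log2 signal over the 6 tested fibrillar collagens, the 12 fibroblast markers and the 6 basal keratinocyte markers on each array, by fraction, with genotype and set in colour and symbol. Fibrillar collagens (9.22 to 10.35 in HG, 11.79 to 12.59 in bulge) and fibroblast markers (8.28 to 8.75 in HG, 10.55 to 11.63 in bulge) are both highest in bulge, and the Het HG set 2 array stands low in basal keratinocyte markers (13.51).

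Genes that make, export, process and take up collagen were counted from lists chosen by role, to be read beside 10.7% falling and 8.44% rising over all genes tested. Of 13 tested genes that modify prolines and lysines of collagen, P3h4 and P4ha2 fell in HG against bulge (-1.36 and -0.91), which is near that background. The lysyl hydroxylase Plod2 rose (1.76), but it was above the filter level in HG and not in bulge, so it had to differ. Of the 12 genes above it in both fractions, 2 fell and 0 rose. Of 7 chaperones and export factors 4 fell, among them Fkbp14 (-1.74) and Serpinh1, which encodes the collagen chaperone HSP47 (-1.41, limma adjusted p = 7.68e-04). Creb3l1 was above the filter level in bulge and not in HG, and of the 6 above it in both fractions 3 fell. Of 9 genes for propeptide cleavage and crosslinking 5 fell. They were led by the procollagen C-proteinase enhancer Pcolce (-3.78, limma adjusted p = 3.46e-06), Pcolce2 (-3.41), and the crosslinking enzymes Loxl1 (-2.99) and Lox (-2.67). Lox and Loxl4 were above the filter level on fewer than 2 HG arrays, and of the 7 above it in both fractions 4 fell. Of 9 genes for collagen breakdown and its inhibitors 6 fell, namely 5 of 6 genes for enzymes or uptake, led by Ctsk, the collagen-cleaving cathepsin K (-3.85), and Mmp2 (-2.33), and 1 of 3 metalloproteinase inhibitors, Timp2 (-2.36). Among 5 receptors, Ddr2 (-2.0) and Ddr1 (-0.97), which are tyrosine kinases that bind collagen, both fell. None of the 7 hemidesmosome partners of collagen XVII passed (limma, 2 at an unadjusted p below 0.05, median -0.46).

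Bulge cells had higher fibrillar collagen signals than total keratinocytes too, in a comparison that uses the same bulge arrays as the one above. Of 28 collagens 14 rose in bulge and 2 fell, against 13.8% and 10.5% of the 12749 genes tested, with a median of 1.35 beside 0.05 over all genes. Of the 24 above the filter level in every fraction, 13 rose and 2 fell. Col1a1 differed by 2.88 (SE 0.22, adjusted p = 3.83e-06), Col3a1 by 2.77 (SE 0.19, adjusted p = 1.8e-06) and Col5a2 by 2.91 (SE 0.18, adjusted p = 1.18e-06). The largest rises were those of Col8a2 (3.21, SE 0.34) and Col6a1 (3.16, SE 0.23), and Col4a4 rose by 2.39 (SE 0.38, adjusted p = 6.08e-04). Col18a1 rose by 1.54 (SE 0.15, adjusted p = 1.88e-05), at 11.02 to 11.68 in bulge and 9.49 to 10.07 in total keratinocytes. The 2 that fell were Col23a1 (-2.09, SE 0.34, adjusted p = 8.13e-04) and Col27a1 (-1.15, SE 0.35, adjusted p = 0.0329). The call of Col27a1 was lost in 8 alternatives, 6 of which left out 1 array, at adjusted p-values between 0.0501 and 0.13.

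Col23a1 was almost constant in total keratinocytes, at 9.97 and 10.01 in cKO and 10.02 and 9.95 in Het, against 7.07 to 9.13 in bulge. Col17a1 did not pass between bulge and total keratinocytes in the 12-array fit (0.44, 95% interval -0.23 to 1.11, adjusted p = 0.325), although bulge was higher in 4 of 4 conditions. It passed with only the 8 arrays of these fractions (adjusted p = 0.0405) and without Het HG set 2 (adjusted p = 0.0397), with the same difference of 0.44. Col7a1 differed by -0.09 (95% interval -0.83 to 0.64, adjusted p = 0.868). Fibroblast markers rose in 11 of 12 cases there (median 2.54). Mfap5 and Twist2 were above the filter level on fewer than 2 total keratinocyte arrays, and of the 10 above it in both fractions 9 rose. Serpinh1 (1.83), Pcolce2 (3.52) and Loxl1 (3.23) rose too, while Itga6, the hemidesmosome integrin partner of collagen XVII, fell (-0.77, limma adjusted p = 0.0285). Of 6 basal keratinocyte markers, Krt15 rose (0.81, adjusted p = 0.0474), and Itga6 and Cdh1 fell (Cdh1 by 0.62, adjusted p = 0.05 after rounding). Of 4 dermal papilla markers Hhip (2.87) and Lepr (1.64) rose and Rspo3 fell (-2.50), and of 3 Schwann markers Pmp22 rose (2.77). Hhip was above the filter level in bulge and in neither other fraction, so it had to differ. Of 5 endothelial markers Cdh5 (1.49) and Kdr (1.28) rose. What part these markers' cells have in the bulge to total keratinocyte differences was not tested.

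HG cells set against total keratinocytes differed little in collagens. Of the 28, 2 rose and 3 fell, against 5.11% and 5.72% of all 12749 genes tested, so the shares were not far from the background. Those that fell were Col1a1 (-1.04, SE 0.22, adjusted p = 0.0136), Col3a1 (-0.86, SE 0.19, adjusted p = 0.0151) and Col1a2 (-0.80, SE 0.20, adjusted p = 0.0267), each lower in HG in 4 of 4 conditions. Col1a2 read 12.42 and 14.01 in cKO total keratinocytes and 11.96 and 13.36 in Het ones, so its arrays overlap with those of HG. Col4a1 rose by 0.85 (SE 0.24, adjusted p = 0.0436), with the 4 total keratinocyte arrays between 9.56 and 10.47. Col25a1 gave 1.94 (SE 0.47, adjusted p = 0.0224), with total keratinocytes at 4.95 and 4.43 in cKO and 4.85 and 4.37 (the floor) in Het. It passed the filter only through HG, so the filter favoured a rise. With the floor at the pooled median its difference was 0.27 (adjusted p = 0.146), and its other probe set gave 0.46.

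None of those 5 calls was stable to the choice of arrays. Without Het HG set 1 all 5 missed the threshold, at limma adjusted p-values between 0.0508 (Col1a1) and 0.0787 (Col25a1). Without Het TK set 1 or cKO TK set 1 (TK, total keratinocytes), Col1a2, Col3a1, Col4a1 and Col25a1 missed it. Without cKO HG set 2 or cKO TK set 2, Col4a1 and Col25a1 missed it, and without Het HG set 2, Col1a2 and Col4a1 did. Col17a1 gave -0.60 (95% interval -1.27 to 0.07, adjusted p = 0.224) and Col7a1 -0.40 (95% interval -1.14 to 0.34, adjusted p = 0.479). Of 12 fibroblast markers 1 rose (Fbln1, 0.89, limma adjusted p = 0.0239) and the list's median was -0.01. All 7 melanocyte markers rose in HG (median 2.55), and 6 of them were above the filter level in both fractions. Pcolce (-0.84), Ctsk (-0.89) and Mmp2 (-1.21) fell in HG.

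By level, the order of fractions was bulge, then total keratinocytes, then HG for Col1a1, Col1a2 and Col3a1, with each step past the test in the main fits. The step from total keratinocytes to HG was lost in 3, 9 and 5 of 21 alternatives for Col1a1, Col1a2 and Col3a1. Of the other probe sets of Col1a2 above the filter, 1 gave -0.72 and 1 gave 0.74 for HG minus total keratinocytes. For Col18a1 bulge was highest, and HG (9.71 ± 0.43) and total keratinocytes (9.74 ± 0.25, SD, n = 4 each) did not differ beyond their spread (difference -0.03, 95% interval -0.35 to 0.28). For Col23a1 the HG (9.17 ± 1.04) and total keratinocyte levels (9.99 ± 0.04) were not told apart (limma adjusted p = 0.14), and bulge was lowest (7.90 ± 0.99).

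Between genotypes no collagen passed the test. Over 12 arrays with fraction and set as a block, 0 of 28 collagens and 0% of 12749 genes were called for cKO against Het (limma, 9 collagens and 1099 genes at an unadjusted p below 0.05). The median difference, cKO minus Het, was 0.25 for the collagens and 0.01 for all genes tested. Col1a1 had cKO minus Het differences of 0.71 and 1.66 in HG, -0.40 and 1.37 in bulge and 0.47 and 0.59 in total keratinocytes (set 2 and set 1), with a mean of 0.73 (SE 0.23, adjusted p = 0.502). Col1a2 was higher in cKO in 6 of 6 pairs (0.70, SE 0.14, adjusted p = 0.269), and Col3a1 in 5 of 6 (0.71, SE 0.16, adjusted p = 0.349). Col6a3 was higher in 6 of 6 (0.48, adjusted p = 0.519) and Col18a1 lower in 5 of 6 (-0.35, adjusted p = 0.557).

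Col17a1 had differences of 1.84 and 0.63 in HG, -0.33 and 0.12 in bulge and 0.24 and 0.14 in total keratinocytes, and its mean of 0.44 (95% interval -0.06 to 0.95, adjusted p = 0.612) rested largely on the HG pair of set 2, since it was 0.16 without the Het HG set 2 array. Col7a1 averaged 0.47 (95% interval -0.01 to 0.95, adjusted p = 0.589). Fibroblast markers differed by a median of 0.24, with 0 of 12 called and 3 at an unadjusted p below 0.05 (limma), and basal keratinocyte markers by 0.32, with 0 of 6 called and 1 at that level.

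**Figure D5:**
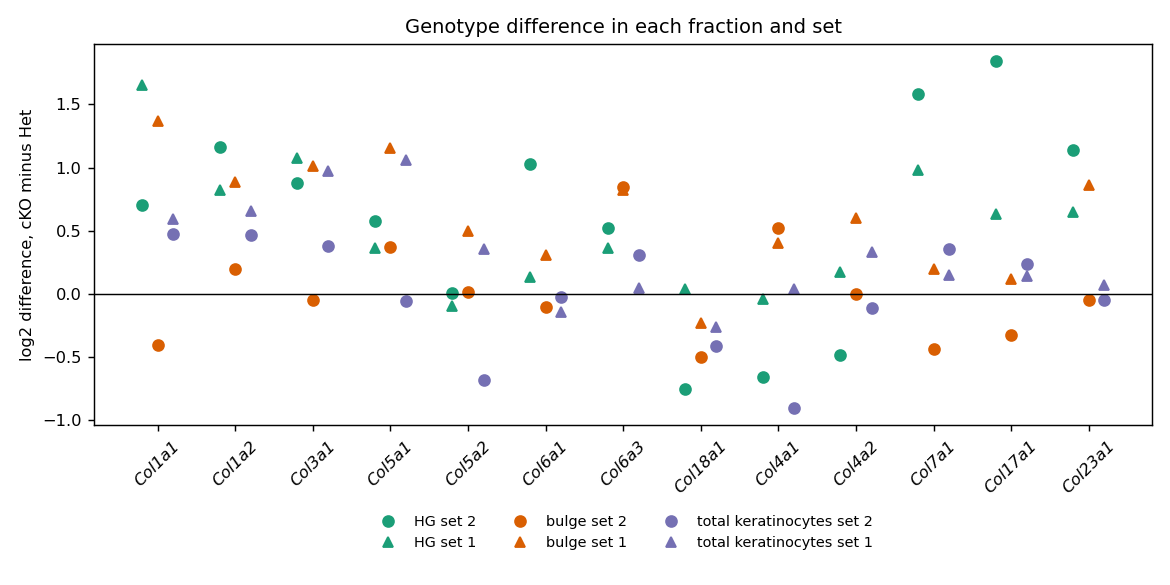
Points are log2 differences, cKO minus Het, for 13 collagen genes, 1 point for each pair of arrays of the same fraction and set, with fraction in colour and set in symbol. Col1a2 and Col6a3 lie above 0 in 6 of 6 pairs, and Col17a1 and Col7a1 have their largest differences in HG (Col17a1 at 1.84 in set 2).

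Set 2 and set 1 were compared within each genotype over HG and bulge, where the labels set activated against quiescent Het cells and aberrantly quiescent against quiescent cKO cells. In Het, 0 of 28 collagens passed (limma, 8 at an unadjusted p below 0.05), against 0.707% of 12589 genes tested. The collagen nearest the threshold was Col23a1 (-1.47, SE 0.35, adjusted p = 0.0991), lower in set 2 in HG and in bulge, followed by Col4a6 (-1.59, SE 0.52, adjusted p = 0.199) and Col18a1 (0.67, SE 0.22, adjusted p = 0.2). Col17a1 gave -0.84 (95% interval -1.97 to 0.29, adjusted p = 0.425) and Col7a1 -1.03 (95% interval -2.24 to 0.18, adjusted p = 0.361). In cKO, 0 of 28 passed (limma, 6 unadjusted) as did 0% of all genes (777 unadjusted), with Col23a1 at -1.68 (SE 0.35) and Col1a1 at -1.48 (SE 0.30), both at an adjusted p of 0.647. The set difference in cKO minus that in Het passed for 0 of 28 collagens (limma, 2 unadjusted, Col1a1 at -1.36 and Col22a1 at -2.22), against 0.00794% of all genes.

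These counts changed when a single array, Het bulge set 2 or Het HG set 2, was left out. Each of those fits leaves Het set 2 with 1 array, and the share of all genes called in them is not given here. Their counts therefore cannot be read as a result about the collagens and are left out. Col23a1 was lower in set 2 than in set 1 in HG and bulge of either genotype, while its 4 total keratinocyte arrays spanned only 9.95 to 10.02.

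The activated Het HG array is described beside the other 3 HG arrays with no test, because it is 1 array. It was the lowest of the 4 for 16 of 28 collagens (57.1%) and the highest for 5 (17.9%), beside 43.3% and 30.9% of all genes tested, so it was at an end of the range for most genes. Lowest there were Col17a1 (12.61, against 14.37 to 15.003 on the other 3 HG arrays) and Col7a1 (8.29, against 9.87 to 11.33). Col4a6 (7.23, against 8.62 to 10.08), Col23a1 (7.83, against 8.97 to 10.27) and Col16a1 (9.71, against 10.53 to 11.18) were also lowest, as were Col1a1, Col1a2, Col3a1 and the 3 type VI chains. Highest there were Col4a1 (11.54, against 10.46 to 10.88), Col4a2 (10.06, against 9.26 to 9.57), Col18a1 (10.35, against 9.42 to 9.59), Col14a1 (8.89, against 7.34 to 7.78) and Col4a3 (5.79, with the other 3 at the floor).

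Basement membrane collagens stood at both ends on that array, with Col4a1, Col4a2 and Col18a1 at the top and Col4a5 and Col4a6 at the bottom. Its basal keratinocyte markers were low (79490 summed signal, against 180100 to 209500 in the other HG arrays). Its fibroblast marker sum was the highest of the 4 HG arrays (30520, against 18120 to 21770), with Dcn at 14.56 against 12.48 to 12.81. Fbln1 (10.48, against 9.43 to 9.78) and Cd248 (6.61, against 5.91 to 6.23) were highest there too. The mean log2 of the same 12 markers was the lowest of the 4 (8.28, against 8.42 to 8.75). Lum was lowest there, at 8.53 against 9.71 to 10.75, as were Dpt, Mfap5, Thy1 and Vim. Pdgfra, Pdgfrb, Twist1 and Twist2 lay between the other HG arrays. The part of these in the collagen values of that array was not tested.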

How the data were processed

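Gene expression of sorted skin fractions was read from a deposited table of MAS5 signal intensity on a linear scale, which the authors made with MAS5 per the submitters' processing notes (no version given). Labelled cRNA came from 2 µg of RNA, per the labels. Trimming 2% at each end gave a mean of 500 on each array, so no normalization was added. Of 45101 probe sets, 34945 had 1 symbol, and per gene the one with the highest mean log2 signal was used. Values under the pooled 25th percentile were raised to it, and genes above the pooled median on at least 2 arrays were tested with limma 3.58.1 in R 4.3.3 (eBayes with trend, two-sided, Benjamini-Hochberg over all genes, 0.05). HG and bulge were compared on 8 arrays, total keratinocytes and genotypes on 12, and sets on 8. With 1 array in most groups, the number of arrays limits the precision. The fits were tested on simulated data. Alternatives were quantile normalization, other floors and filters, the mean of all probe sets, eBayes without trend, other arrays or no block, and leaving out arrays. Members and lists were chosen with earlier results of these data known. Named genes were the anchoring, type I, III and IV collagens, Col18a1, Col6a1 and up to 6 further called collagens per direction, with up to 4 called genes of each list. Col16a1, Col14a1, Col4a3, Col22a1 and the genes of the activated array were named after their values were seen.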

Additional observations from a re-analysis of the deposited data

How the results depend on the processing

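Of the 16 collagens called for HG against bulge, 10 stayed past the threshold in all 13 alternatives. Of the 16 called for bulge against total keratinocytes, 12 stayed past it in all 21. None of the called genes changed direction. Those lost in at least 1 setting were Col12a1, Col15a1, Col8a1 and Col27a1 in both comparisons, and Col23a1 and Col5a1 for HG against bulge. For HG against total keratinocytes the 5 calls became 3 with the floor at the pooled median, 1 with no filter, 2 with the mean of probe sets, 3 with eBayes without trend, and 0 to 7 when single arrays were left out. For cKO against Het the count of called collagens was 0 in all 20 alternatives. The set comparison in Het gave 1 called collagen with all 12 arrays. The share of all genes called in that fit is not given here. For the set comparisons and their difference, counts with arrays left out are not given, since such a fit leaves 1 condition with a single array. Leaving out arrays moved Col7a1 between -0.676 and 0.271 for HG minus bulge, between -0.759 and 0.0953 for HG minus total keratinocytes, and between -0.464 and 0.102 for bulge minus total keratinocytes. The cause was not tested.

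The set number is shared between genotypes and fractions, but the labels do not say what it pairs. Deviations of the total keratinocyte arrays of the same set correlated between cKO and Het across genes (r = 0.399 over 12749 genes, which are not independent replicates, from 1 pair). Without the block, Col23a1 and Col27a1 lost their calls for HG against bulge (limma adjusted p = 0.148 and 0.0514). Col15a1 lost its call for bulge against total keratinocytes (limma adjusted p = 0.0669). For HG against total keratinocytes Col1a1, Col1a2, Col3a1 and Col4a1 lost theirs. For cKO against Het 0 collagens were called without the block. Of 18 genes with several probe sets above the filter, 15 had the same sign of HG minus bulge in all of them, and Col14a1, Col20a1 and Col4a1 did not.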
